A study of Homo sapiens with 7 samples.

Results

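The strong but narrow SP1 peaks described here are the peaks of an SP1 ChIP-seq list from HCT116 cells whose score was at or above the upper quartile of the list (597.06) and whose width was under 900 bp. They numbered 1448 of 27015 peaks (5.36%). Score and width come from the ChIP-seq sample alone, and since they chose the members they are given as a description. The rule uses no transposon insertions, but it was set with earlier results of these data known. All cells were HCT116, an established human colon adenocarcinoma line. In the WT_PB group (3 libraries) insertions of the piggyBac transposon were made by the wild-type transposase, and in the SP1_PB group (2 libraries) by the same transposase fused to SP1. In every group the cells carrying an integrated transposon had been selected with the drug G418. The labels do not name the promoter that drove either transposase, nor whether each replicate was a culture of its own, so tests over libraries cover the spread of these samples alone, which may be technical. The SP1 ChIP-seq list comes from 1 sample with an antibody against SP1.

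SP1 belongs to a family of transcription factors with zinc fingers and binds GC-rich elements in the promoters and enhancers of many widely expressed genes. The piggyBac transposase inserts its transposon at TTAA sites and by itself favours open chromatin and the neighbourhood of active promoters. When it is fused to a DNA-binding protein, the inserted transposons act as calling cards that mark where the fusion has been. In this list high scores were most often found in wide peaks, and the members here are those that scored high at a small width. The question is whether score at matched width goes with more insertions of the fusion, beyond what the wild-type transposase shows at the same peaks.

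The members had a median score of 717.86 (quartiles 645.92 and 843.09, highest 2513.4) and a median width of 805 bp, from 426 to 899 bp. Together they covered 1.14 Mb of hg18. Even under 900 bp they were wider than weak peaks. The 10540 weak narrow peaks, with scores of 384.96 or less and a width under 900 bp, had a median width of 618 bp, and 8.96% of them measured 800 to 899 bp against 53.0% of the members. Comparisons of the groups were therefore also made at equal width, by averaging the weak peaks in 100 bp classes with the width distribution of the members. At the score threshold the nearest narrow peaks scored 597.24 inside it (chromosome 3, 87358772 to 87359646, and chromosome 6, 158573243 to 158574117) and 596.9 outside it (chromosome 6, 14032773 to 14033648). At the width threshold 5 strong peaks measured 899 bp and 8 measured 900 bp.

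Members lay on every chromosome but Y. Chromosome 19 held the most, 153 (10.6% of the members, against 8.86% of all peaks), followed by chromosome 1 with 135 and chromosome 17 with 123, and X held 7. Members made up the largest part of a chromosome's peaks on chromosome 6 (7.82%) and 18 (7.43%) and the smallest, Y aside, on X (2.44%). The distance from a member to the next peak of the list had a median of 8746 bp, against 6487 bp for weak narrow peaks, and 27.4% of members and 28.8% of weak narrow peaks had another peak within 2 kb.

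The insertion libraries differed in size. The WT_PB libraries held 57419 to 67423 distinct positions and the SP1_PB libraries 18856 and 14467, with a median of 3 to 4 and of 6 and 13 reads per position. Positions no more than 3 bp apart, which TTAA sites cannot be, were more frequent in SP1_PB. At the members such merging takes away 15.6% and 17.8% of SP1_PB and 6.37% to 10.1% of WT_PB positions. At weak narrow peaks the loss is 15.6% and 17.7%, and 6.51% to 7.71%. The main values keep such positions apart.

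Insertions of the SP1 fusion lay near the strong narrow peaks in a larger share than those of the wild-type transposase. Within 1 kb of a member, each position being assigned to its nearest peak, the SP1_PB libraries had 1051 positions, 454 of them in replicate 2. These were 3.17% (95% Wilson interval 2.93 to 3.43) and 3.14% (2.87 to 3.43) of replicates 1 and 2. WT_PB replicates 1, 2 and 3 had 408, 478 and 397 positions, or 0.693%, 0.709% and 0.691%. The 2 groups did not overlap, and libraries of a group lay close together: the means were 3.15% ± 0.0197 (SD, n = 2) and 0.698% ± 0.00964 (SD, n = 3). The ratio of the pooled shares was 4.52 (95% interval 4.17 to 4.90), and its lowest and highest values among the 6 SP1_PB and WT_PB library pairs were 4.43 and 4.58. The exact permutation test over the 5 libraries (two-sided) gave p = 0.1, the smallest its 10 splits allow, and 0.15 after Benjamini-Hochberg adjustment over the 9 comparisons made in this way. No such comparison can pass 0.05, so a difference is described here by whether the libraries of the groups overlapped.

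With positions near other peaks left out of the library totals the ratio of the mean shares was 6.80. On full library totals the pooled ratio over all 27015 peaks was 5.23 (5.13 to 5.34), with library pairs from 5.07 to 5.43. The members, at 4.52 on such totals, lay below the peaks as a whole.

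Inside the members the gap was wider. SP1_PB replicates 1 and 2 had 276 and 199 positions there, 1.46% and 1.38% of the library, and the WT_PB libraries had 80, 113 and 88, or 0.136%, 0.168% and 0.153%. The pooled ratio was 9.32 (8.04 to 10.8), with a range over library pairs from 8.21 to 10.8 and an exact permutation p = 0.1. Over all peaks it was 11.3 (10.9 to 11.8). With totals made of only the positions inside members and those near no peak, the ratio of the mean shares at members was 14.4. This value is not comparable with the 11.3, which rests on full library totals. Of the positions within 1 kb of a member, 46.2% and 43.8% were inside it in the SP1_PB libraries and 19.6% to 23.6% in the WT_PB libraries. Intervals of shares and ratios cover counting error only, since they treat distinct positions as independent and leave out the spread between libraries. The PCR reads carry no molecular identifiers and cannot be counted as independent molecules.

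Both transposases had more positions per peak at the strong narrow peaks than at weak narrow peaks. Rates are given as positions per 1000 peaks for every 10000 positions of a library. Within 1 kb of the members the SP1_PB rate was 217.7 ± 1.36 (SD, n = 2), against 58.2 ± 0.794 at weak narrow peaks. The WT_PB rate was 48.2 ± 0.665 (SD, n = 3) against 17.1 ± 1.33. The 3502 narrow peaks with scores in between, from 385.02 to 596.9, had intermediate rates, 109.9 ± 2.68 for SP1_PB and 30.6 ± 1.24 for WT_PB. In every library the order of the 3 groups of narrow peaks was the same, within 1 kb and inside peaks.

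**Figure D1:**
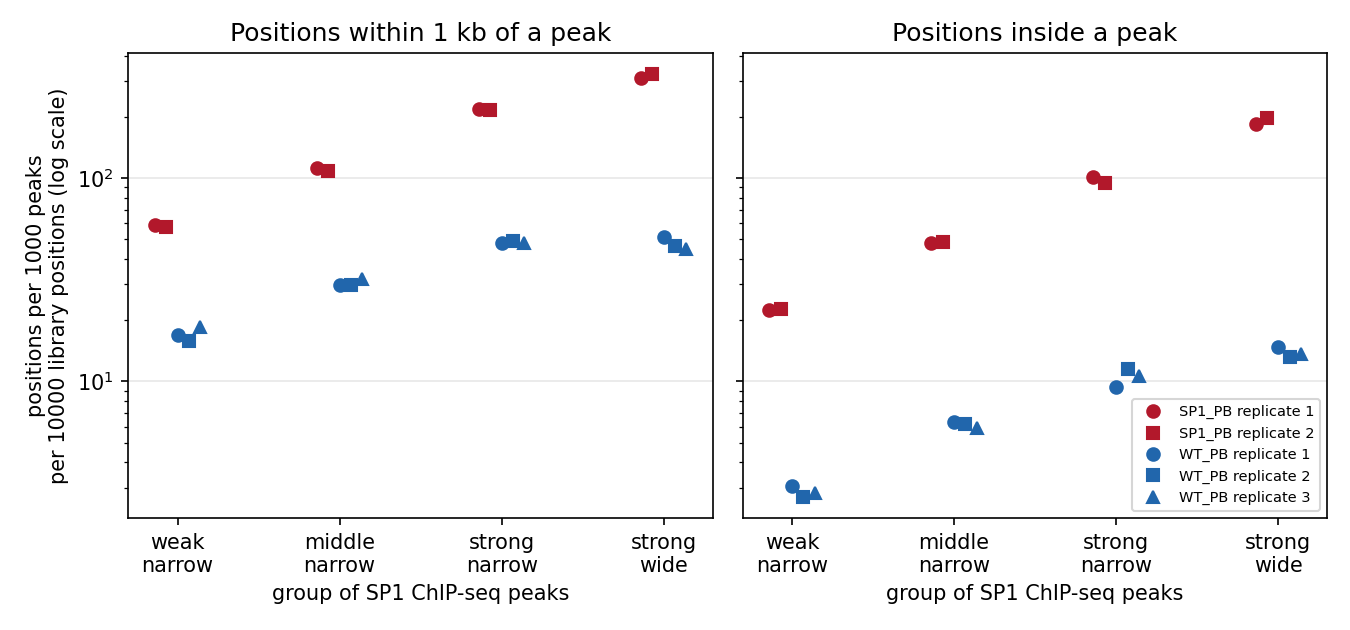
Insertion rate at 4 groups of SP1 peaks, within 1 kb of a peak (left) and inside peaks (right). The y axis, on a log scale, gives positions per 1000 peaks per 10000 positions of the library, and each point is 1 library (red SP1_PB, blue WT_PB). At strong narrow peaks both SP1_PB libraries stand near 217 within 1 kb and the WT_PB libraries near 48.

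The step from weak to strong within 1 kb was larger in both libraries of the fusion than in any of the wild-type transposase. The rate per strong narrow peak was 3.72 and 3.76 times that per weak narrow peak in SP1_PB replicates 1 and 2, and 2.84, 3.08 and 2.58 times in WT_PB replicates 1, 2 and 3. The groups did not overlap (ratio of the means 1.32, pooled 1.32 with a 95% interval of 1.19 to 1.45, exact permutation p = 0.1). At equal width the values were 3.53 and 3.57 for SP1_PB and 2.80, 2.93 and 2.54 for WT_PB, a ratio of 1.29 (exact permutation p = 0.1). The wild-type transposase on its own thus had at least 2.5 times as many positions at a strong as at a weak peak of the same width.

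Inside peaks the step did not differ beyond the spread between libraries. It was 4.50 and 4.16 in the SP1_PB libraries and 3.06, 4.28 and 3.72 in the WT_PB libraries, which overlap (ratio of the means 1.17, pooled 1.18 with a 95% interval of 0.982 to 1.42, exact permutation p = 0.3). At equal width it was 3.52 and 3.26 in SP1_PB and 2.55, 3.51 and 3.62 in WT_PB, a ratio of 1.05 (exact permutation p = 0.9), and without WT_PB replicate 1 this ratio was 0.951. The interval of the pooled value does not leave out a step as large as that within 1 kb, so the 2 distances were not shown to differ. Few positions stand behind the equal-width values inside peaks: the 944 weak peaks of 800 to 899 bp, which carry the largest weight, held 111 SP1_PB and 65 WT_PB positions.

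Finer classes of score at the width mix of the members gave a graded picture for both transposases. Within 1 kb the SP1_PB rate was 56.2 ± 5.63 (SD, n = 2) at scores from 200 to under 300, 68.1 ± 3.29 from 300 up to 384.96, 107.9 ± 2.07 from 385.02 to 596.9, 179.8 ± 8.53 from 597.24 to under 800, and 300.5 ± 30.3 at 800 or more. The WT_PB rate in these classes was 17.3 ± 1.53, 18.2 ± 1.55, 30.0 ± 1.10, 42.2 ± 1.77 and 60.9 ± 3.13. The 2 lowest WT_PB classes do not differ beyond their spread. In classes from 300 upward no library of 1 class reached the values of the next in the same group of libraries. The ratio of the pooled shares, without adjustment for width, was 3.23 (3.01 to 3.46), 3.76 (3.45 to 4.11), 3.60 (3.36 to 3.86), 4.23 (3.80 to 4.70) and 4.95 (4.37 to 5.60). It is highest in the top class, but the values from 300 up to 384.96 and from 385.02 to 596.9 lie in each other's intervals.

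**Figure D2:**
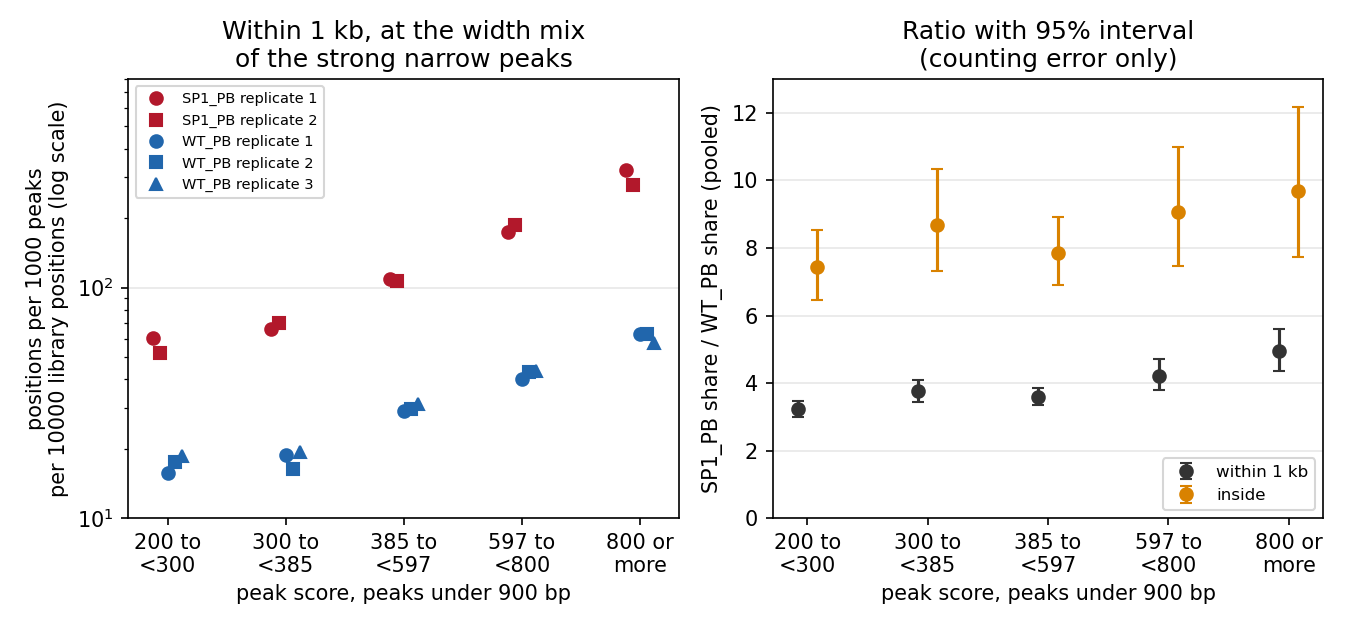
Narrow peaks in 5 classes of score. Left, positions within 1 kb per 1000 peaks per 10000 library positions (log scale), at the width distribution of the strong narrow peaks, 1 point per library. Right, pooled SP1_PB share over WT_PB share with 95% intervals for counting error: within 1 kb it goes from 3.23 in the lowest to 4.95 in the highest class, and inside peaks all 5 intervals overlap.

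Against strong peaks of 900 bp or more, the narrow ones took fewer insertions of the fusion but about as many of the wild-type transposase. The 5307 strong wide peaks had a median width of 1278 bp and an SP1_PB rate within 1 kb of 317.4 ± 9.22, so a strong narrow peak had 0.703 and 0.669 times the positions of a strong wide one in the 2 SP1_PB libraries. In the WT_PB libraries this was 0.929, 1.06 and 1.07. The groups did not overlap (ratio of the means 0.672, pooled 0.676 with a 95% interval of 0.617 to 0.740, exact permutation p = 0.1). The strong wide peaks also had a higher median score, 829.93, so width and score are not separated in this comparison.

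Per length of peak the wild-type transposase had a higher density inside the narrow than inside the wide strong peaks in all 3 libraries. The fusion had a lower one in both libraries with the main counts, but not in every alternative. Inside strong narrow peaks the SP1_PB density was 124.6 ± 5.47 positions per Mb for every 10000 library positions, against 137.7 ± 6.77 in strong wide peaks, or 0.966 and 0.847 times. The WT_PB density was 13.4 ± 1.39 against 10.0 ± 0.606, or 1.12, 1.54 and 1.37 times. The ratio of these quotients was 0.675 (exact permutation p = 0.2), and the libraries of the groups did not overlap. Without positions that occur in more than 1 library they did (0.745). In that setting the SP1_PB quotients were 0.9515 and 1.124, and at scores of 800 or more 0.8756 and 1.214. The direction for the fusion alone is therefore not settled.

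Around the centres of the members both transposases had their highest rates beside the centre and not at it. In SP1_PB the rate was 33.2 ± 8.47 at 0 to 200 bp from the centre, 70.1 ± 2.80 at 200 to 400 bp, 49.99 ± 4.92 at 400 to 600 bp and 16.9 ± 1.09 at 800 to 1000 bp. In WT_PB it was 2.18 ± 0.598, 9.39 ± 0.514, 12.2 ± 1.00 and 6.55 ± 1.97 at the same distances. Positions at the centre were few, 164 for SP1_PB and 59 for WT_PB, and their pooled ratio was 15.3, against 7.43, 4.05 and 2.57 at the 3 farther distances. The centre of a peak is the midpoint of its edges, since the list gives no summit. The number of TTAA sites at each distance was not computed, because no hg18 sequence was used here.

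**Figure D3:**
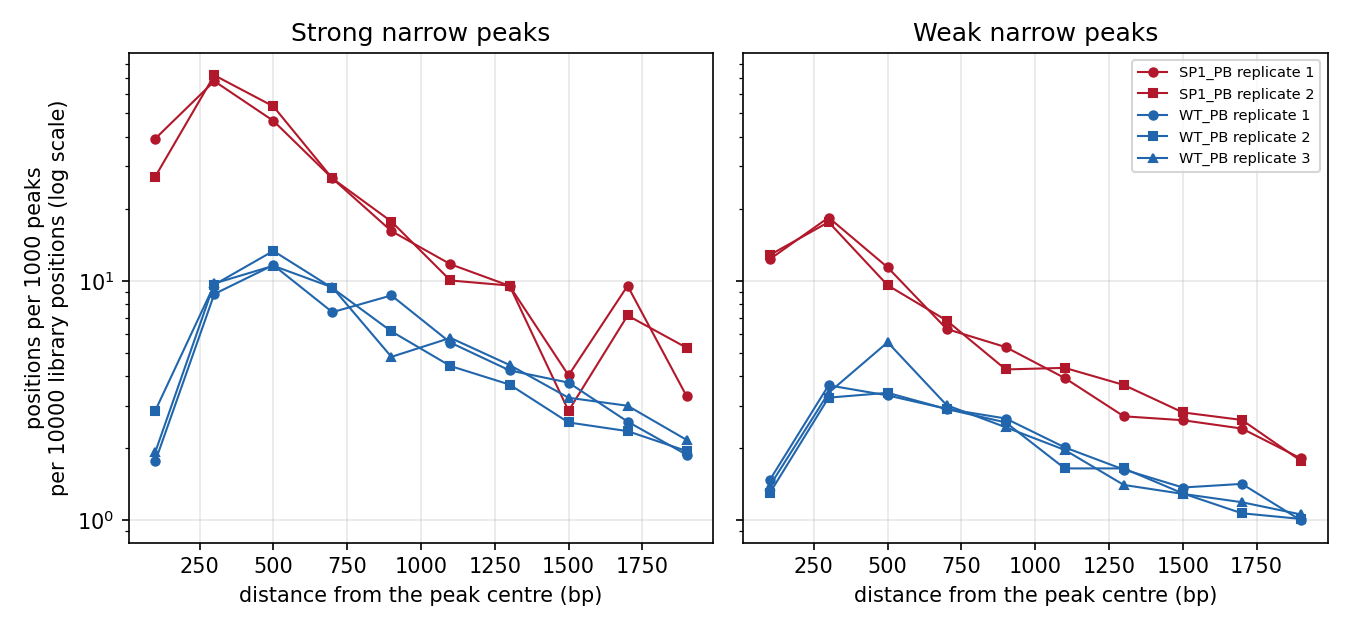
Insertion rate by distance from the peak centre, both sides together in steps of 200 bp, for strong narrow (left) and weak narrow peaks (right). The y axis is on a log scale and each line is 1 library. At strong narrow peaks SP1_PB has its highest rate, 70.1 on average, at 200 to 400 bp and WT_PB its highest, 12.2, at 400 to 600 bp.

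The dip at the centre was also present at weak narrow peaks. SP1_PB stood there at 12.5 ± 0.361 at 0 to 200 bp and 18.0 ± 0.558 at 200 to 400 bp, and WT_PB at 1.38 ± 0.0863 and 3.44 ± 0.207. WT_PB replicate 3 stood apart at 400 to 600 bp from weak peaks, with 335 positions against 206 and 242 in the other WT_PB libraries. In that library 36.0% of positions near weak narrow peaks rested on 1 read, against 24.7% and 23.7%. Near the members this share was 20.9% to 22.8% in the WT_PB libraries. With only positions of at least 2 reads the strong to weak ratio within 1 kb in SP1_PB was 1.25 times that in WT_PB, and 1.22 times at equal width. With at least 5 reads these values were 1.22 and 1.13, against 1.32 and 1.29 with all positions. The libraries of the groups stayed apart in each case.

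Measured from the peak edge, the ratio of SP1_PB to WT_PB shares at the members was 9.32 inside, 4.02 (3.47 to 4.67) at 1 to 250 bp, 2.90 (2.37 to 3.55) from there to 500 bp, 2.30 (1.88 to 2.82) from there to 1 kb, 1.87 (1.51 to 2.32) at 1 to 2 kb and 1.65 (1.40 to 1.95) at 2 to 5 kb. In each of these 6 ranges both SP1_PB libraries lay above every WT_PB library. The weak narrow peaks had lower values in each range, from 7.90 (7.09 to 8.81) inside and 3.10 (2.81 to 3.43) at 1 to 250 bp to 1.43 (1.32 to 1.55) at 2 to 5 kb. At 1 to 2 kb the values of strong and weak narrow peaks, 1.87 and 1.85, were alike. The intervals of strong and weak narrow peaks overlapped in every range but 1 to 250 bp. At 1 to 250 bp the library pairs overlapped, running from 3.55 to 4.64 at members and from 2.34 to 3.68 at weak narrow peaks.

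The ratio also differed with the neighbourhood of a peak. Members with another peak within 2 kb had a ratio of 6.36 (5.25 to 7.70), those with the next peak at 2 to 5 kb 5.06 (3.96 to 6.46), and the 868 members with none within 5 kb 4.06 (3.69 to 4.48). At weak narrow peaks the same classes had 5.82 (5.19 to 6.53), 5.01 (4.27 to 5.87) and 2.65 (2.47 to 2.85). Among isolated peaks the library pairs ran from 3.76 to 4.33 at members and from 2.31 to 3.05 at weak peaks, which do not overlap. Among peaks with a neighbour within 2 kb they ran from 5.38 to 7.17 and from 5.11 to 6.46, which do. The rates at members ran the other way. In the 3 classes, from crowded to isolated, SP1_PB stood at 172.0, 202.3 and 241.8 and WT_PB at 27.0, 39.6 and 59.7. At weak narrow peaks SP1_PB stood at 58.7, 51.7 and 59.8 and WT_PB at 10.2, 10.3 and 22.6. Each position went to its nearest peak, so crowded peaks had a shorter reach, and the part of this in the rates and ratios was not tested. Inside members, from crowded to isolated, the SP1_PB rate was 84.9, 99.7 and 103.7 and the WT_PB rate 6.93, 8.84 and 12.5. The ratios inside were 12.3, 11.0 and 8.31.

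The step from weak to strong peaks was also compared within these classes. Among peaks with no other within 5 kb it was 1.52 times that of WT_PB within 1 kb, with no overlap of the libraries, and 1.44 times at equal width. Among peaks with another within 2 kb it was 1.12 times, with overlap (exact permutation p = 0.6), and 0.950 times at equal width. On chromosome 19 alone it was 1.03 times (exact permutation p = 1) and 0.884 times at equal width, both with overlap. The values for crowded peaks and for chromosome 19 were added after seeing the data, and the difference between isolated and crowded peaks was not itself tested.

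Chromosome 19, which held the most members, had a higher ratio than the other chromosomes pooled, and a like value for strong and weak peaks. Its 153 members had 119 SP1_PB and 75 WT_PB positions within 1 kb, a ratio of 8.75 (6.55 to 11.7), and its 875 weak narrow peaks a ratio of 8.37 (6.88 to 10.2). The SP1_PB rate at members was 231.5 ± 20.7 on this chromosome, with the libraries at 216.9 and 246.1, and 216.1 ± 0.919 on the others. The WT_PB rate was 26.9 ± 3.38 on chromosome 19 and 50.7 ± 1.11 elsewhere, and no WT_PB library exceeded 30.0 there or fell short of 49.99 elsewhere. Inside members the pattern was another: the SP1_PB rate was 123.9 ± 3.66 on chromosome 19 and 94.99 ± 5.25 elsewhere, with no overlap, and the WT_PB rate 9.92 ± 0.781 and 10.6 ± 1.19, with overlap. At weak narrow peaks within 1 kb SP1_PB was higher on chromosome 19, at 87.8 ± 14.4 against 55.5 ± 2.17, and WT_PB lower, at 10.3 ± 0.181 against 17.7 ± 1.47. Other chromosomes were not compared singly, and some held few positions at members, such as chromosome 21 with 11 of SP1_PB and 2 of WT_PB and X with 8 and 4.

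**Figure D4:**
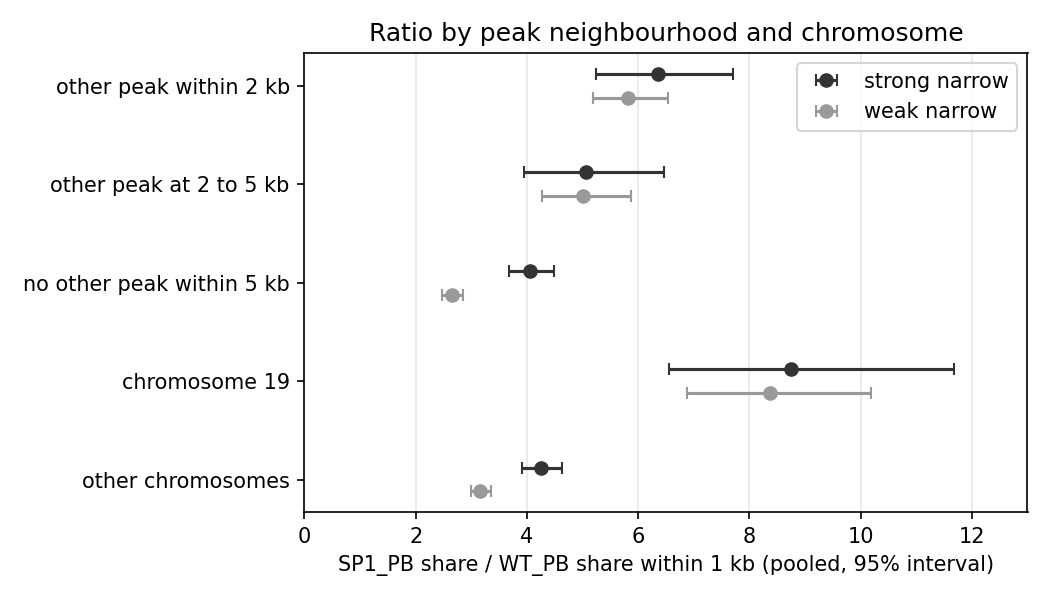
Pooled SP1_PB share over WT_PB share within 1 kb of strong narrow (black) and weak narrow peaks (grey), by distance to the next peak and by chromosome. Points are ratios and bars 95% intervals for counting error. Strong and weak peaks stand apart among isolated peaks, at 4.06 and 2.65, and have overlapping intervals among peaks with a neighbour within 2 kb and on chromosome 19.

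Within the members, narrower ones had no fewer insertions within 1 kb in the classes with enough peaks. The SP1_PB rate within 1 kb was 256.6 ± 40.9 at the 184 members of 600 to 699 bp, 213.4 ± 9.18 at the 451 of 700 to 799 bp and 212.9 ± 4.55 at the 768 of 800 to 899 bp. The WT_PB rate was 47.5 ± 3.46, 45.8 ± 1.58 and 48.6 ± 1.56. The ratios, 5.31 (4.26 to 6.62), 4.68 (4.04 to 5.43) and 4.38 (3.92 to 4.90), have overlapping intervals. The 45 members under 600 bp had 28 SP1_PB and 56 WT_PB positions, at rates of 182.9 ± 41.4 and 67.8 ± 10.5. Their ratio was 2.76 (1.75 to 4.34), with library pairs from 1.98 to 3.75. Inside peaks the SP1_PB rate was 48.9 ± 47.5 at members under 600 bp and 90.6 ± 9.96 at those of 600 to 699 bp. It was 101.6 ± 9.30 at 700 to 799 bp and 100.6 ± 2.26 at 800 to 899 bp.

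Most members had no position of the fusion assigned to them. Of the 1448, 974 (67.3%) had no assigned SP1_PB position within 1 kb in either library, against 78.1% of all peaks. The larger WT_PB libraries had none at 59.9% of members and 72.7% of all peaks. An SP1_PB count of 1 was found at 233 members, of 2 at 109, and of 5 or more at 48, with 13 as the highest. These 48 peaks (3.31% of the members) held 322 of the 1051 SP1_PB positions (30.6%), and over all peaks such peaks held 33.3%. Both SP1_PB libraries had a position at 168 members, and only 1 of the libraries at 306. No library had a position assigned to 684 members (47.2%), against 76.9% of weak narrow and 41.0% of strong wide peaks. In all these counts a position stands only at its nearest peak. One within 1 kb of a crowded member can therefore be counted at the neighbour. An absent position is what most peaks show at this depth and does not mean that a peak is out of reach.

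At equal library size the share of members marked differed between the transposases. With every library reduced to 14467 positions, 20.6% and 20.03% of members were expected to hold a position within 1 kb in SP1_PB and 6.26%, 6.41% and 6.17% in WT_PB (ratio 3.23, exact permutation p = 0.1). For weak narrow peaks the means were 5.95% ± 0.152 and 2.30% ± 0.176, and for strong wide peaks 27.0% ± 1.03 and 6.28% ± 0.435. In WT_PB the share of strong narrow peaks marked was that of strong wide peaks within the spread. With each position counted for every peak in reach, the means at members were 22.31% in SP1_PB and 6.545% in WT_PB.

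Single peaks were tested with an exact binomial test on the pooled positions within 1 kb, with Benjamini-Hochberg adjustment over all 3879 peaks with at least 3 positions. Calls needed an adjusted p under 0.05 and the same direction in each of the SP1_PB libraries. Of the 332 members tested, 92 (27.7%) were called higher in SP1_PB, against 35.1% of all peaks tested, 24.4% of weak narrow and 40.1% of strong wide peaks tested. The share among members is below that of all peaks. The exact binomial test called 0 peaks lower (0% of all tested), and 0 had an unadjusted p under 0.05 in that direction. Even a member with 10 WT_PB and no SP1_PB positions had an unadjusted p of 0.378 in this exact test, so a lower level was not detectable at this depth. The test covers counting error only, a peak enters it through its positions of either group, and only 22.9% of members did. Of the members tested, 37 had no WT_PB position and entered through SP1_PB alone, and 33 of these were called. Over all peaks it was 552 of 631. Without a WT_PB position 3 SP1_PB positions could already be called, so at such peaks the entry rule nearly fixed the outcome.

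The number of members called depended on how positions were counted. With positions within 3 bp merged, 60 of 296 members tested were called (20.3%, against 28.0% of all peaks tested). Without positions that occur in more than 1 library it was 36 of 220 (16.4% against 21.3%), and with positions of at least 5 reads 52 of 189 (27.5% against 32.7%). Without SP1_PB replicate 1 it was 35 of 232 (15.1% against 18.8%) and without SP1_PB replicate 2 44 of 264 (16.7% against 21.2%). With 1 position per 1 kb cluster, which caps a peak's count, 3 of 245 members tested (1.22%) and 152 of all 2747 peaks tested (5.53%) were called. The share among members was below that among all peaks in each of these settings.

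The members with the highest scores were not those with the most insertions. The strongest, on chromosome 7 at 1764207 to 1765028 (score 2513.4, 822 bp), had no position within 1 kb in any of the 5 libraries. The second, on chromosome 10 at 103805238 to 103806126 (score 2168.2), had 4 WT_PB positions, 2, 1 and 1 per library, and none of SP1_PB. The third, on chromosome 12 at 75796607 to 75797477 (score 2056), more than 100 kb from the next peak, had 4 and 1 positions in the SP1_PB libraries against 1 in WT_PB, and was called (exact binomial test, adjusted p = 0.00318). These 3 peaks show that a high score went with none, with wild-type only and with mostly fusion insertions.

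The fourth, on chromosome 17 at 39275053 to 39275839 (score 1683.7), had 3 and 3 SP1_PB positions, all outside its edges, and no WT_PB position. It was called (exact binomial test, adjusted p = 0.000232). With the WT_PB group set to a floor of 3 positions in all, SP1_PB was 11.0-fold higher. Folds by this floor leave out the counting error of the SP1_PB positions and are not lower bounds. The fifth, on chromosome 9 at 135103353 to 135104131 (score 1596.8), had 3 SP1_PB positions, all in replicate 1, against 1 of WT_PB, and was not called because replicate 2 had none. The sixth, on chromosome 1 at 153256140 to 153257010 (score 1575.2) and 209 bp from the next peak, had 1 SP1_PB position assigned to it. Of the 100 members with the highest scores, 1057.2 or more, 48 had an SP1_PB position, against 32.7% of all members, and 56 a WT_PB position, against 40.1%. The SP1_PB and WT_PB counts are not comparable with each other, because the WT_PB libraries are larger.

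The member with the most fusion insertions lay on chromosome 10 at 120927861 to 120928582 (score 938.53, 722 bp). It had 5 and 8 SP1_PB positions, all inside the peak, and 3, 2 and 3 WT_PB positions, a ratio of 8.96 (3.71 to 21.6, exact binomial test, adjusted p = 5.6e-05). Of its SP1_PB positions 4 were the same in both libraries, and with positions within 3 bp merged 8 were left. This peak was marked by both transposases.

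Other members were marked almost only by the fusion. On chromosome 7 at 25868378 to 25869159 (score 746.48) the SP1_PB libraries had 5 and 7 positions against 1 of WT_PB, a ratio of 66.1 (8.60 to 509, exact binomial test, adjusted p = 3.1e-07). On chromosome 1 at 15725637 to 15726443 (score 814.52) they had 7 and 4 against 1, with 10 of the 11 outside the peak, a ratio of 60.6 (7.83 to 470). On chromosome 19 at 54558432 to 54559223 (score 897.05) they had 5 and 4 against none, 16.5-fold higher by the same floor. However, 4 positions were the same in both libraries, so that 5 distinct positions stood behind the 9. The intervals of such ratios are wide because a single wild-type position sets them.

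The peak on chromosome 17 at 39631555 to 39632398 (score 1041), only 4 bp from the next peak, had 8 SP1_PB positions and none of WT_PB. The peak on chromosome 19 at 56898880 to 56899651 (score 622.04) had the same counts. Both were 14.7-fold higher by that floor. On chromosome 17 at 52410099 to 52410723 (score 657.93, 625 bp) the SP1_PB libraries had 7 and 2 positions, none inside the peak, against 1 of WT_PB, and merging positions within 3 bp left 5. On chromosome 14 at 49404342 to 49405201 (score 923.65) they had 4 and 6 against 2, a ratio of 27.6 (6.04 to 125.8). These 4 peaks were called, as were all 12 members with the most SP1_PB positions, which were picked by that same count, so their ratios tend to overstate the excess.

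The other 4 of these 12 had 3 or more wild-type positions as well. On chromosome 1 at 17103715 to 17104328 (score 958.27, 614 bp) 8 and 2 SP1_PB positions stood against 6 of WT_PB, and merging within 3 bp left 5 against 6. On chromosome 12 at 52060024 to 52060822 (score 818.15) 3 and 7 stood against 6, all outside the edges of the peak. On chromosome 7 at 5904646 to 5905464 (score 862.34) 3 and 5 stood against 5, and on chromosome 1 at 23757078 to 23757896 (score 698.78) 4 and 4 against 3. Ratios at these peaks ran from 8.82 to 14.7.

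At the members with the most wild-type insertions, again picked by that count, the fusion was not in excess beyond counting error. The peak on chromosome 5 at 162864801 to 162865568 (score 628.87) had 9, 4 and 4 WT_PB and 3 and 1 SP1_PB positions, a ratio of 1.30 (0.436 to 3.85). The peak on chromosome 20 at 6051346 to 6052173 (score 952.72) had 4, 7 and 5 against 1 and 1, a ratio of 0.689 (0.158 to 3.00). On chromosome 17 at 40804557 to 40805396 (score 1043) 2, 4 and 5 stood against 3 and 0. On chromosome 4 at 146759493 to 146760345 (score 1291.5) 4, 4 and 2 WT_PB positions, 7 of the 10 inside the peak, stood against none of SP1_PB. None of these 4 was called, and all but the one on chromosome 17 lay more than 60 kb from the next peak.

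After the strongest member of all, 3 members scored highest among those with no position assigned to them in any library. They lay on chromosome 20 at 60606118 to 60606840 (score 1547.1), chromosome 18 at 75196736 to 75197394 (score 1504.7) and chromosome X at 114913464 to 114914195 (score 1416.8). All 3 had another peak within 2 kb, at 57, 587 and 1734 bp. Positions nearer to that peak were counted there, so these zeros do not show that no insertion lay within 1 kb. Weak peaks could in turn be marked as often as any member. The weak narrow peaks with the most SP1_PB positions were on chromosome 6 at 30792769 to 30793600 (score 348.33) with 13 against 3 of WT_PB, on chromosome 19 at 60679361 to 60680027 (score 312.87) with 12 against 2, and on chromosome 6 at 33393183 to 33393718 (score 373.27) with 11 against none. They were picked from more than 10000 peaks by that count.

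The same positions recurred in different libraries more often near the members than near no peak. The SP1_PB libraries shared 122 positions near members, 20.4% of the positions of replicate 1 and 26.9% of those of replicate 2. Near weak narrow peaks they shared 19.5% and 25.9%, near strong wide peaks 28.1% and 35.1%, and more than 1 kb from any peak 8.78% and 11.5%. Pairs of WT_PB libraries shared 45 to 60 positions near members, 10.3% to 14.7% of a library's positions there, against 5.94% to 8.33% near weak narrow peaks and 2.27% to 3.70% near no peak. For the wild-type transposase the share was higher at strong than at weak narrow peaks in all 3 pairs, and for the fusion the 2 values were close. Sharing of cells or of DNA between libraries and reuse of the same TTAA site cannot be told apart here.

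Positions near members also rested on more reads than positions near no peak. The median was 8 and 15.5 reads in the SP1_PB libraries and 5, 8 and 6 in WT_PB replicates 1, 2 and 3, against 5 and 11, and 3, 4 and 3, for positions more than 1 kb from any peak. Near weak narrow peaks the medians were 7 and 15, and 4, 7 and 3. In every library the median near members was above that near weak narrow peaks and that near no peak. Whether this difference in reads has a part in the insertion rates was not tested beyond the minimum numbers of reads already given.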

How the data were processed

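Insertions were mapped in 5 libraries by inverse PCR and sequencing, and SP1 binding by ChIP-seq in 1 sample. The insertion files give read counts per mapped position, deposited raw, without normalization. The submitters' processing notes name Bowtie 0.12.7 and the build hg18. Lines at the same position were merged, each distinct position counted once, and chromosome codes 23 and 24 were read as X and Y. The peak list is MACS output per the deposited readme, and its score is the authors' own. No source used here states what scale that score has, which MACS release was run or which control was used. Peak starts were converted to 1-based coordinates.

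Members are peaks with a score of 597 or more and a width under 900 bp, and weak narrow peaks those of the same widths with a score under 385. Each position was given to its nearest peak by distance to the edge. Libraries were compared with exact permutation tests, pooled ratios have 95% log-normal intervals, and single peaks were tested with an exact binomial test against the library totals (Python 3.11.15, scipy 1.17.1). Both the single-peak test and the equal-width ratio were run on simulated counts drawn independently. Those runs do not cover positions that lie within 3 bp of each other or recur between libraries. Equal library size was computed exactly, with no draws. Peaks were named by rule: the 6 members with the highest score, the 12 with the most SP1_PB and the 4 with the most WT_PB positions, the 4 strongest without any, the 3 weak narrow peaks with the most SP1_PB positions, and those at the thresholds. Members, lists and tests were chosen with earlier results of these data known. Genes and sequences at the peaks were not analysed here, since no hg18 genome or annotation was used, and neither was the RNA-seq sample.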

Additional observations from a re-analysis of the deposited data

How the results depend on the processing

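The shares of SP1_PB positions near and inside the members, and the share of members marked at equal library size, kept their direction and the separation of the libraries in all alternatives run for them. Their ratios to WT_PB ran from 3.89 to 6.80, from 7.79 to 14.4 and from 2.82 to 4.47. The upper ends for the shares, 6.80 and 14.4, came from leaving positions near other peaks out of the library totals. For 14.4 the positions within 1 kb of a member but outside it were left out too. The strong to weak ratio within 1 kb also kept both in all alternatives but those on crowded peaks and chromosome 19 (1.22 to 1.52, and 1.13 to 1.53 at equal width). In these, chosen after seeing the data, the libraries overlapped: among peaks with another within 2 kb it was 1.12 (0.950 at equal width) and on chromosome 19 alone 1.03 (0.884). Inside peaks, where the libraries overlapped, they were apart with 1 position per 1 kb cluster (1.25), at least 2 reads (1.21), at least 5 reads (1.22), scores of 800 or more (1.21), widths from 600 bp (1.17), peaks of intermediate score as the comparison (1.18, and 1.17 at equal width) and without positions in more than 1 library (1.32, and 1.41 at equal width). On chromosome 19 alone the ratio inside was below 1, at 0.907. At equal width it was below 1 with at least 5 reads (0.997), on chromosome 19 alone (0.566) and among peaks with another within 2 kb (0.569). Leaving out 1 library gave 1.08 to 1.28, with the libraries also apart without SP1_PB replicate 2 (1.22) and without WT_PB replicate 2 (1.28), and from 0.951 to 1.12 at equal width, where without WT_PB replicate 1 it was 0.951. The cause was not tested. The ratio of strong narrow to strong wide peaks inside, per length, was 0.745 with overlapping libraries without positions in more than 1 library. Called members numbered 92 of 332 tested (27.7%, all peaks 35.1%). They numbered 3 with 1 position per 1 kb cluster (1.22%, all peaks 5.53%), 36 without positions in more than 1 library (16.4%, 21.3%), 52 with at least 5 reads (27.5%, 32.7%) and 60 with positions within 3 bp merged (20.3%, 28.0%). Among isolated members they were 57 of 244 (23.4%) and at scores of 800 or more 41 of 144 (28.5%), all peaks being unchanged at 35.1%. Leaving out 1 library gave 35 (15.1%, all peaks 18.8%) to 89 (32.4%, 38.8%).

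Replicate numbers 1 and 2 occur in both groups. Deviations of same-numbered libraries from their group means over 2910 windows of 1 Mb correlated at 0.0407 and -0.0565. With 2 SP1_PB libraries the deviations of 1 mirror those of the other, so these values are not independent. They cannot settle whether same-numbered libraries share more than a number. With the replicate number as a block the ratios were 4.50 near and 9.40 inside the members. Strong to weak was 1.26 within 1 kb and 1.20 inside, and 1.24 and 1.13 at equal width. Against strong wide peaks the ratios were 0.691 and 0.690, and at equal library size the ratio was 3.21. Each of these means lay on the same side of 1 as the main value. For strong to weak inside peaks the 2 pairs disagreed, with 1.47 for replicate 1 and 0.972 for replicate 2. At equal width they gave 1.38 and 0.929. The 14467 positions of the smallest library limit the precision, and a count of 0 there allows a share of up to 0.0207%.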
